A study of Homo sapiens with 12 samples.

Results

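The response of the multiple myeloma cell line KMS-12 to the BET inhibitor JQ1 was read from 4 of the 12 libraries of a series that treated 3 human myeloma lines. The 4 libraries are the 2 JQ1 and the 2 DMSO replicates whose line label is KMS-12. The JQ1 cells received 1 µM of the compound, dissolved in DMSO, for 72 h, and the control cells received the matching volume of DMSO, diluted in PBS. The genotype label is WT in both groups, and all cells grew in RPMI-1640 with fetal bovine serum. Total RNA was sequenced after removal of ribosomal RNA. The other lines, KMS-11 and RPMI8226, have 2 JQ1 and 2 DMSO libraries each under the same treatments, and they serve here to estimate the spread and to test where KMS-12 differs. KMS-12 is a single line, the label does not say which of its sublines was used, and the replicates are not described as separate cultures. The p-values therefore measure how far these particular libraries scatter, and that scatter may be technical.

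BET proteins, among them BRD2 and BRD3, bind acetylated histones and bring the elongation kinase P-TEFb to active promoters and enhancers. JQ1 fills the pocket that holds the acetylated lysine and displaces these proteins from chromatin. Myeloma cells are malignant plasma cells, and the genes they express most strongly, which often sit next to large enhancers, are known for their sensitivity to BET inhibition. Many KMS-12 cultures carry a translocation that places the cyclin D1 gene, CCND1, beside an immunoglobulin enhancer.

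The labels were checked against genes of myeloma translocations. CCND1 had 6553 and 6018 reads in the KMS-12 JQ1 libraries and 17402 and 15070 in the KMS-12 DMSO libraries, against 167 to 714 reads in the 8 libraries of the other lines. FGFR3, MAF and CCND2, read strongly in KMS-11 or in both other lines, had 0 to 2 reads in each KMS-12 library. NSD2 had 58802 to 110123 reads in the KMS-11 libraries and 2751 to 3474 in those of RPMI8226. In KMS-12 it had 7540 and 7533 reads in DMSO and 1928 and 2018 in JQ1. The plasma cell genes SDC1, IRF4, PRDM1 and XBP1 were read in all 4 libraries. Of 11 measured B cell markers, MS4A1 and FCER2 had no read in any of them, while BACH2, CD79A, CD79B and BANK1 had reads in DMSO. Total counts were 27366499 and 26461507 in JQ1 and 22833280 and 22338449 in DMSO. Replicates were not copies of each other: the chi-square of their counts, divided by its degrees of freedom, was 5.64 between the JQ1 libraries and 6.13 between the DMSO libraries.

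MALAT1 and NEAT1, a pair of nuclear long non-coding RNAs that neighbour each other on chromosome 11 (GRCh38, 65497688 to 65506516 and 65422774 to 65445540), took much of the JQ1 reads. MALAT1, the RNA of nuclear speckles, made up 25.7% and 25.8% of the counts in JQ1, against 8.06% and 9.01% in DMSO. NEAT1, the scaffold of paraspeckles, made up 10.01% and 9.25% in JQ1, against 2.50% and 2.15% in DMSO. At this depth counting error is small: the Wilson 95% interval of the MALAT1 share in JQ1 replicate 1 runs from 25.6777% to 25.7105%. Such intervals cover counting error only. Together the pair held 35.7% and 35.1% of JQ1 counts and 10.6% and 11.2% of DMSO counts, so the groups did not overlap. In the other lines the pair held 20.0% and 17.5% in KMS-11 JQ1 and 8.73% and 8.08% in RPMI8226 JQ1. The share of counts on protein-coding genes was 60.1% and 60.6% in JQ1, against 83.2% and 82.8% in DMSO. Fewer genes had at least 1 read in JQ1 (24490 and 24443) than in DMSO (27484 and 27404). The counts outside the pair were 17595995 and 17182482 in JQ1 and 20422242 and 19846689 in DMSO, so the JQ1 libraries were shallower for all other genes.

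**Figure D1:**
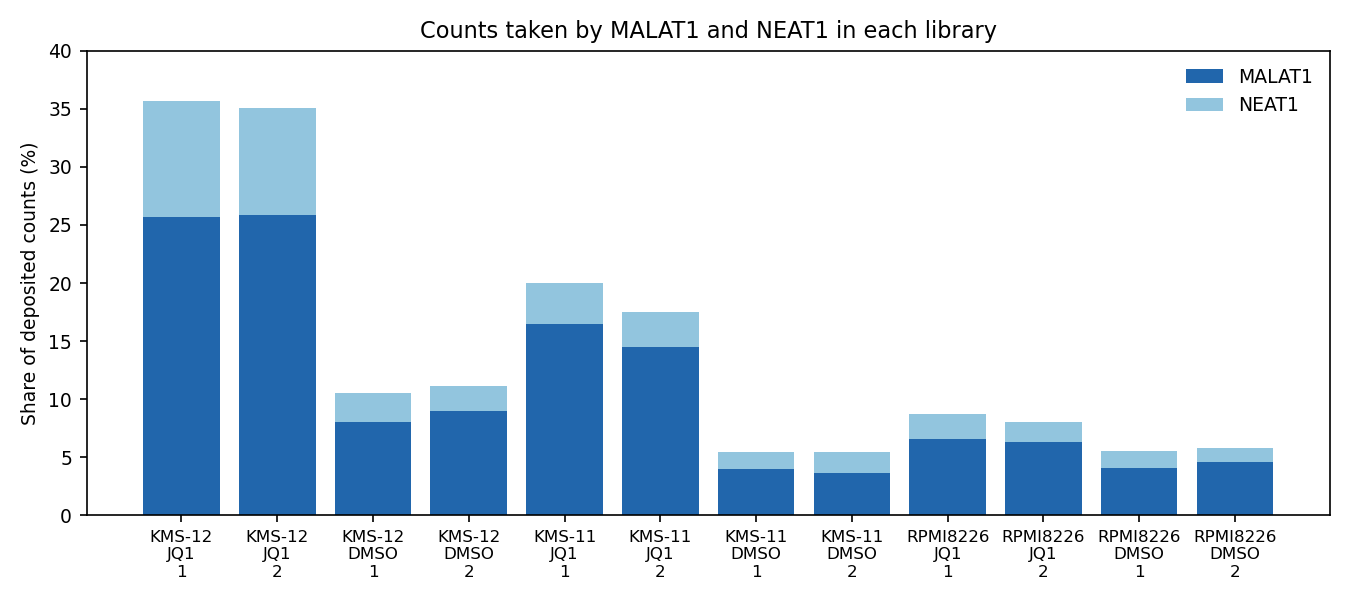
Share of deposited counts (%) taken by MALAT1 (dark) and NEAT1 (light), stacked, in each of the 12 libraries, 1 bar per library. The KMS-12 JQ1 bars reach 35.7% and 35.1%, and the KMS-12 DMSO bars 10.6% and 11.2%.

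This composition bears on what a fold change is relative to. The counts were not scaled to a spike-in, so every value is a relative amount, and the scaling sets where 0 lies. Trimmed mean scaling (TMM), which assumes that most genes do not change, gave scaling factors of 0.724 and 0.718 to the JQ1 libraries and 1.23 to each DMSO library. Against TMM, scaling by total counts moved the log2 fold change of all genes by -0.77, which is 1.70-fold. The pair of nuclear RNAs accounted for -0.46 of this shift and the remaining genes for -0.31, so leaving the pair out of the totals removed part of the gap only. Leaving it out before TMM moved values by 0.01.

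With TMM, 46% of 23493 tested genes were called, 4757 higher in JQ1 (20.2%) and 6047 lower (25.7%), at a Benjamini-Hochberg adjusted p under 0.05 in edgeR's quasi-likelihood test. Higher genes made up 44.03% of the calls. RLE size factors gave 4836 higher and 5979 lower, and upper-quartile scaling 5107 and 5673. With total counts without MALAT1 and NEAT1 as the library size, 2778 genes were higher and 8518 lower, so that higher genes were 24.59% of the calls. With total counts alone, 1035 were higher and 12780 lower, and higher genes were 7.492% of the calls. All 6047 genes called lower with TMM were also called lower with total counts alone. Of the 4757 called higher, 1035 stayed higher, 2748 lost the call and 974 were called lower. Total counts alone moved every gene down, so each fall grew, and that all falls stayed called is no test of them. A rise of less than about 0.77 on the log2 scale could not remain a rise. The values that follow use TMM. Among rises of genes that the naming rule took, IRF4, SUPT5H, H2BC6, H3-3A, PDIA3, IRF2, ALDOA, ELF1, ELK3 and ITGAM were not called with total counts alone.

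**Figure D2:**
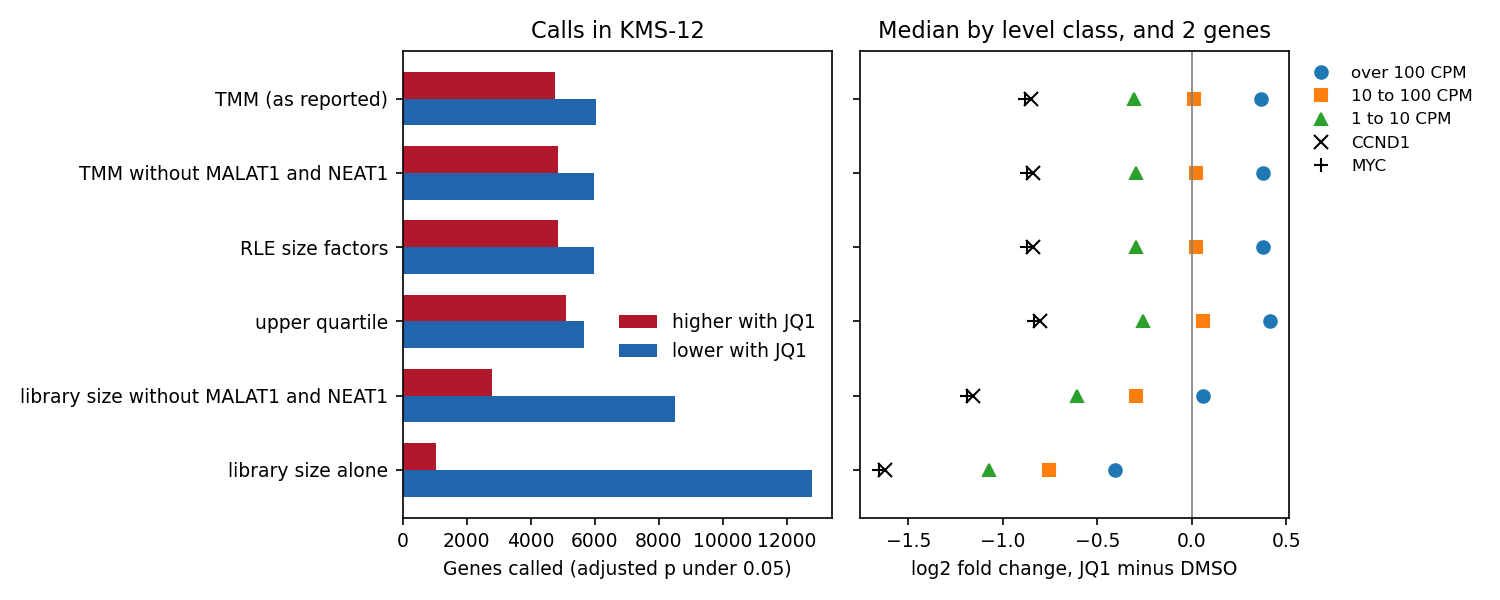
Left, genes called higher (red) and lower (blue) in KMS-12 JQ1 under 6 scalings of the same counts. Right, median log2 fold change (JQ1 minus DMSO) of genes in 3 classes of mean level over the 4 KMS-12 libraries, with CCND1 and MYC as crosses. The classes use all 4 libraries, so that a gene's own change helps to place it. The order of the classes is the same in every row, and the whole row moves left by 0.77 between TMM and library size alone.

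Genes with a high mean level were called higher more often than genes with a low one. With TMM the median log2 change was 0.37 for the 2052 genes with a mean over 100 CPM (reads scaled to a common library size, here with TMM), 0.01 for 7613 genes at 10 to 100 CPM and -0.31 for 5760 genes at 1 to 10 CPM. In the class over 100 CPM, 56.8% of genes were higher and 17.2% lower, and at 1 to 10 CPM 15.9% were higher and 35.6% lower. With total counts alone the medians of the 3 classes were -0.40, -0.76 and -1.07, in the same order. This mean includes the JQ1 libraries, so a gene's own rise or fall helps to set its class. By the level in KMS-12 DMSO alone, a split added after the data were seen, the medians were 0.16 over 100 CPM, -0.01 at 10 to 100 and -0.38 at 1 to 10, but 0.00 for the 7831 genes at 1 CPM or less. By the level in the DMSO libraries of the other lines, 2100 genes over 100 CPM had a median of 0.21 and 6768 genes at 1 to 10 CPM one of -0.18. Changes of 2-fold or more were mostly falls, with 1742 genes higher (7.41%) and 4103 lower (17.5%). Among the 15425 genes with a mean of at least 1 CPM in KMS-12, 1503 were higher and 2787 lower by 2-fold or more. Over all tested genes, 329 were higher and 2251 lower by 4-fold or more. Among the called falls, 303 genes had no read in either JQ1 library. Protein-coding genes were called higher in 25.7% and lower in 29.4% of 14238, and long non-coding RNA genes in 10.5% and 25.8% of 4791. The share of protein-coding genes called higher went with the exonic length of the gene, being 16.6% among the 2849 shortest and 33.2% among the 2846 longest. The share called lower went the other way, at 32% among the shortest and 26.9% among the longest. Longer genes gather more reads, so depth goes with length here, and its part was not tested. By chromosome, the median change of genes at 1 CPM or more lay between -0.18 on chromosome 4 and 0.13 on chromosome 22.

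Among the BET genes and the elongation genes linked to them, HEXIM1 rose most. HEXIM1, an inhibitor of P-TEFb whose rise is a standard readout of BET inhibition (chromosome 17, 45148502 to 45152101), had 181 and 198 CPM in JQ1 and 24.6 and 21.3 CPM in DMSO, a log2 change of 3.04 (SE 0.13; edgeR, adjusted p = 1.18e-11). BRD2 rose by 1.30 (SE 0.10), with 744 and 764 CPM in JQ1 and 302 and 312 CPM in DMSO. BRD3 fell by 1.05 on the log2 scale (SE 0.10), with 25.6 and 27.4 CPM in JQ1 and 51.7 and 57.7 CPM in DMSO. Of 23 measured genes of BET proteins, P-TEFb and elongation factors, 13 were higher and 4 lower. They included SUPT5H at 0.91, a subunit of the pausing factor DSIF, and the P-TEFb kinase CDK9 at 0.49. The list's median of 0.49 stands beside -0.06 for all genes tested and turned to -0.28 with total counts alone, where only HEXIM1 and BRD2 were still called higher against 13 lower.

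CCND1 and MYC moved less. CCND1, cyclin D1, which pairs with CDK4 and CDK6 to start the cell cycle (chromosome 11, 69641087 to 69654474), had 331 and 317 CPM in JQ1 and 620 and 549 CPM in DMSO. This is a log2 change of -0.85 (SE 0.11; edgeR, adjusted p = 3.52e-06), and -1.62 with total counts alone. MYC, the transcription factor of growth on chromosome 8 (127735434 to 127741434), had 205 and 192 CPM in JQ1 and 384 and 349 CPM in DMSO. Its log2 change was -0.88 (SE 0.19; edgeR, adjusted p = 0.00247), or -1.65 with total counts alone. The groups did not overlap for either gene. IRF4, the transcription factor that myeloma cells depend on, was higher, with 2374 and 2423 CPM in JQ1 and 1405 and 1442 CPM in DMSO (log2 0.75, SE 0.11). With total counts alone its value was -0.02 and was not called. PRDM1, the plasma cell factor BLIMP1, had 888 and 871 CPM in JQ1 and 194 and 206 CPM in DMSO. It rose by 2.14 (SE 0.14) and by 1.37 with total counts alone.

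**Figure D3:**
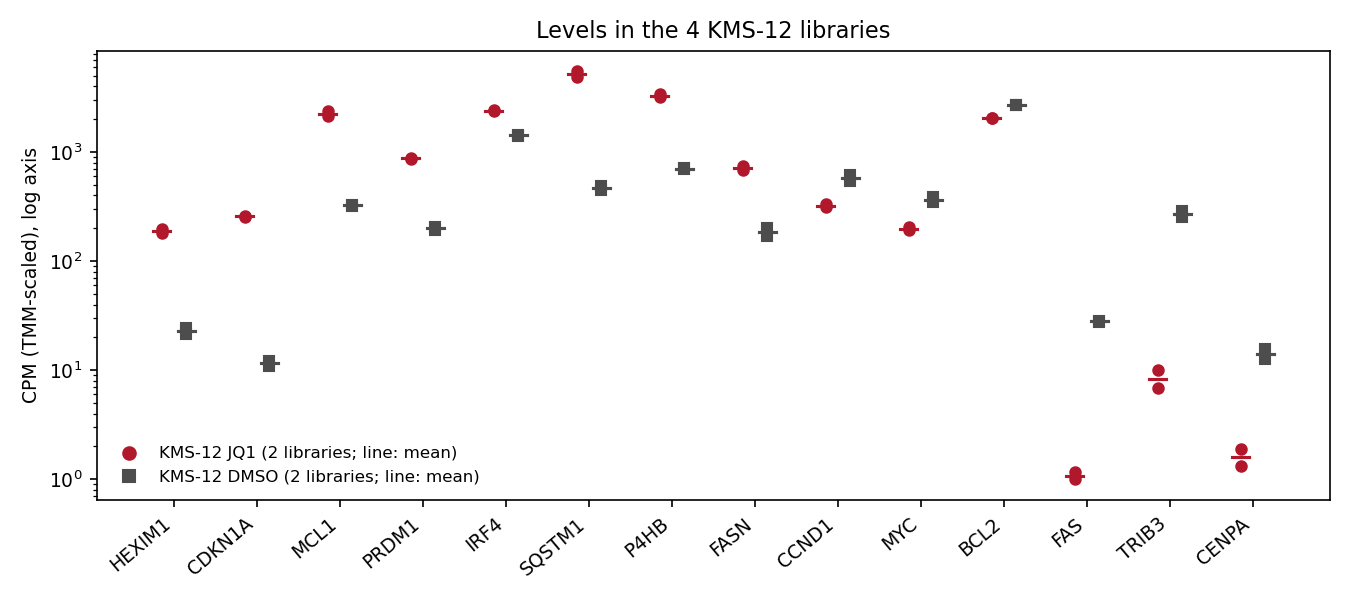
TMM-scaled CPM (log axis) of 14 genes in the 2 KMS-12 JQ1 libraries (red circles, left of each pair) and the 2 DMSO libraries (grey squares, right), with the mean of each group as a line. The 2 groups do not overlap for any of the 14 genes, and the gap runs from BCL2 (log2 -0.39) to TRIB3 (log2 -5.03).

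The rule for leading genes took those with the greatest fold change among called genes with a mean of at least 5 CPM whose groups do not overlap. IQCN led the rises with 469 and 512 reads in JQ1 and 5 and 12 in DMSO (log2 6.34, SE 0.30). PLAAT4, a phospholipase-like tumour suppressor also named RARRES3, had 4859 and 3979 reads in JQ1 and 80 and 111 in DMSO (log2 6.04, SE 0.24). Its neighbour PLAAT2 on chromosome 11 had 292 and 252 reads in JQ1 and 7 and 10 in DMSO (log2 5.49, SE 0.48). Reads could be shared between these related genes. SRPK3, a splicing-factor kinase known from muscle, rose by 5.96 (SE 0.29), and P2RY6, a receptor for UDP, by 5.76 (SE 0.32).

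ZFP36, which binds AU-rich elements and speeds the decay of inflammatory mRNAs, had 435 and 462 CPM in JQ1 and 15.8 and 13.2 CPM in DMSO (log2 4.95, SE 0.15; edgeR, adjusted p = 1.40e-12). CDKN1A, the CDK inhibitor p21, had 256 and 260 CPM in JQ1 and 11.01 and 12.2 CPM in DMSO (log2 4.48, SE 0.22). DUSP5, a phosphatase that switches off nuclear ERK, had 352 and 340 CPM in JQ1 and 17.4 and 16.1 CPM in DMSO (log2 4.37, SE 0.14). EPPK1, a cytolinker, rose by 4.30, DEPP1, a FOXO target, by 4.22 and NQO1, a quinone reductase, by 4.17. All these rises were also called with total counts alone, where they stood at 3.40 to 5.58.

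ETV4, an ETS family transcription factor (chromosome 17, 43527844 to 43579620), led the falls. It had 0 reads in both JQ1 libraries and 732 and 668 in DMSO, which makes it at least 326-fold lower with a floor of 3 counts over the JQ1 group. TNC, the matrix protein tenascin C, had 1 and 2 reads in JQ1 and 352 and 390 in DMSO, a ratio of 173 with a counting interval of 58.9 to 840. KLHDC7B had 3 and 0 reads in JQ1 and 268 and 349 in DMSO, a ratio of 144 with a counting interval of 49.0 to 699. These genes were near silence in JQ1, at a depth where 0 reads allow up to 0.158 CPM in a library.

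TRPM8, the cold-sensing ion channel, had 13 and 20 reads in JQ1 and 2261 and 3274 in DMSO (log2 -6.87, SE 0.41). The log2 change was -6.55 (SE 0.57) for GABRG1, a GABA receptor subunit, -6.33 (SE 0.36) for TFPI, an inhibitor of coagulation, and -6.17 (SE 0.35) for TNFRSF18, the costimulatory receptor GITR. It was -6.08 for RHOD, -5.92 for HSD17B14, -5.74 for CUX2 and -5.72 for RAB26. Several of these genes are known mainly from nerve or other tissues, and in DMSO they were read at 10.4 to 119 CPM.

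Among long non-coding RNA genes, the leading rises were MIR22HG (log2 4.45, SE 0.40), the host of miR-22, ADAMTSL4-AS2 (3.27), LINC00910 (3.27), ADAMTSL4-AS1 (3.17) and ST7-AS1 (2.97). LINC00910 had 3856 and 4029 reads in JQ1 and 612 and 559 in DMSO. Among the leading falls were L3MBTL2-AS1 (log2 -5.34), TRG-AS1 (-4.20), LINC01224 (-3.81) and MIR924HG (-3.43). Whether counting used the strand is not given, so reads of antisense and overlapping genes cannot be told from those of their partners. The pair MALAT1 and NEAT1 stood at 2.36 (SE 0.17) and 2.82 (SE 0.19), and at 1.59 and 2.05 with total counts alone. Counts on long non-coding RNA genes other than this pair were 2.14% and 2.07% of all counts in JQ1 and 3.79% and 3.77% in DMSO.

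Of 21 measured RNAs and proteins of nuclear speckles and paraspeckles, 13 were higher and 2 lower, and their median of 0.50 became -0.27 under scaling by total counts. SON, a scaffold protein of speckles, had 1165 and 1171 CPM in JQ1 and 450 and 491 CPM in DMSO (log2 1.31, SE 0.10). The paraspeckle proteins SFPQ and PSPC1 were each at 0.83, close to the shift of 0.77 between scalings, and NONO, their partner, stood at 0.21 and did not pass the test. SRSF1, a splicing factor, fell by 0.89 (SE 0.09). Of 24 host genes of small nucleolar RNAs, 16 were lower and 3 higher (median -0.66), with SNHG8 at -1.48, ZFAS1 at -1.05 and SNHG16 at -1.001 against SNHG12 at 1.68. In each pathway, members that the rule for named genes does not take were picked as examples after their values were seen.

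The lists hold 870 genes in all. A member counts as measured where it passed the filter on low counts over the 12 libraries, so some measured members have no read in KMS-12, and each count below is over the measured members.

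**Figure D4:**
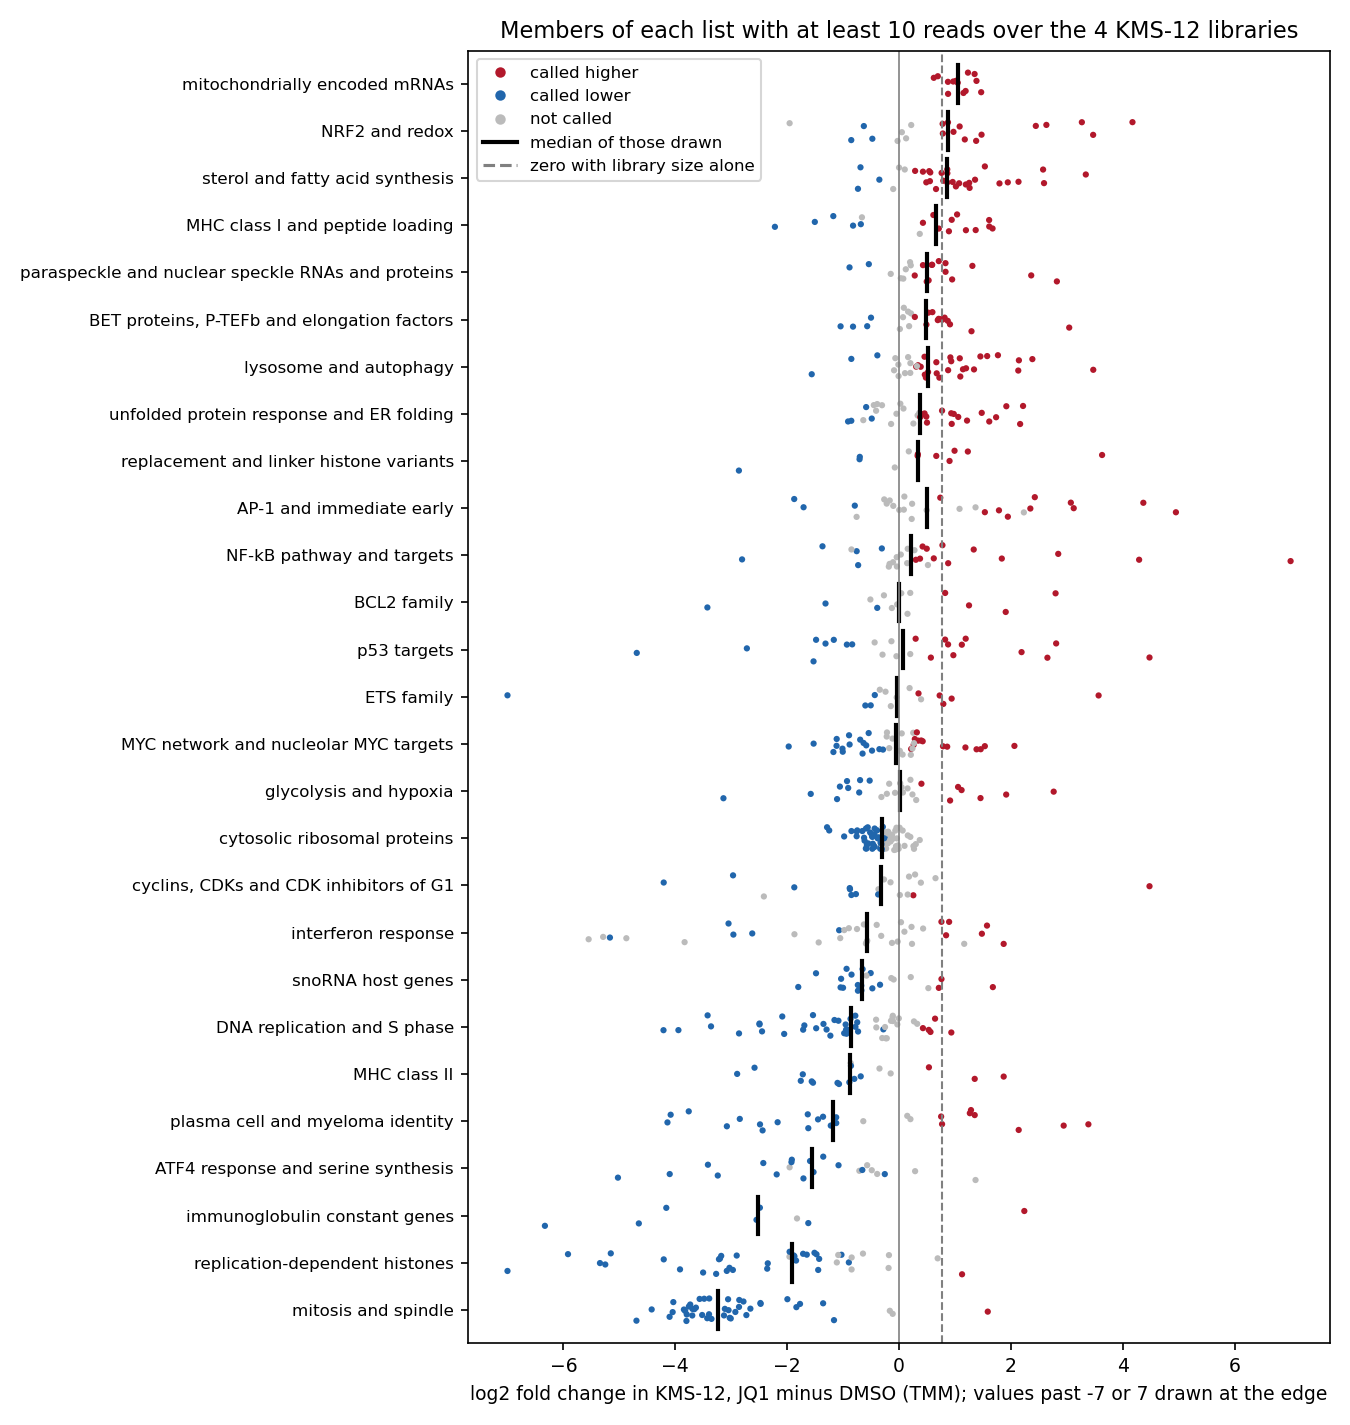
Log2 fold change (JQ1 minus DMSO, TMM) of the members of 27 gene lists with at least 10 reads over the 4 KMS-12 libraries, 1 point per gene, red where called higher, blue where called lower and grey where not called. Black bars are medians of the points drawn. The dashed line at 0.77 marks where 0 lies with total counts alone, and the mitosis list lies farthest to the left, with a median of -3.24.

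Genes of the cell cycle were mostly lower. Of 44 measured genes of mitosis and the spindle, 41 were lower, all by 2-fold or more, and 1 was higher, with a median of -3.24. The background of such falls is 17.5% of all genes. With 1 library left out, the median of the mitosis list lay between -3.99 and -2.88. MAD2L1, a checkpoint protein, had 2.98 and 3.84 CPM in JQ1 and 17.5 and 20.5 CPM in DMSO (log2 -2.48, SE 0.29). CENPA, the histone of centromeres, had 1.31 and 1.89 CPM in JQ1 and 12.6 and 15.5 CPM in DMSO (log2 -3.13, SE 0.41). PRC1, which bundles microtubules at the midzone, had 1.01 and 1.63 CPM in JQ1 and 7.77 and 9.76 CPM in DMSO (log2 -2.73, SE 0.40). FOXM1, the transcription factor of this program, fell by 4.69 (SE 0.68). The proliferation marker MKI67 had 5.75 and 17.4 CPM in JQ1 and 133 and 159 CPM in DMSO, so that JQ1 replicate 2 kept the higher level of the 2. The exception was the phosphatase CDC25B, with 163 and 157 CPM in JQ1 and 54.9 and 51.7 CPM in DMSO (log2 1.59, SE 0.16). In bulk RNA, fewer cycling cells and less of these mRNAs per cell cannot be told apart.

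Mitotic genes are known to share the CHR element, TTTGAA, often next to CCAAT boxes, through which the DREAM complex silences them outside the cycle. In the 250 bases upstream of the start (RefSeq, GRCh38.p14), TTTGAA or its reverse complement was found for 21 of the 37 members that the promoter table holds (56.8%), against 9.17% of 12895 promoters of tested genes. CCAAT, on either strand, was found for 29 of the 37 (78.4%), against 35.0%. Among called genes of any function, TTTGAA was in 6.77% of promoters of higher genes and 11.1% of those of lower genes. A match describes the letters only. The promoters of CENPA and PRC1 are shown because both carry the element close to the start, beginning 18 bases (CENPA) and 20 bases (PRC1) before it, and both genes fell; the capitals mark TTTGAA.
CENPA (chr2:26785806-26786055, plus strand): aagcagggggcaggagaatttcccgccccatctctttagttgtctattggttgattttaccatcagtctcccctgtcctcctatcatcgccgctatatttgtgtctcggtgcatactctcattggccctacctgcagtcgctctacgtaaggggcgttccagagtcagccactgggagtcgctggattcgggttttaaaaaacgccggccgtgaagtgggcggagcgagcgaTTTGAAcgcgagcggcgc
PRC1 (chr15:90994536-90994785, minus strand): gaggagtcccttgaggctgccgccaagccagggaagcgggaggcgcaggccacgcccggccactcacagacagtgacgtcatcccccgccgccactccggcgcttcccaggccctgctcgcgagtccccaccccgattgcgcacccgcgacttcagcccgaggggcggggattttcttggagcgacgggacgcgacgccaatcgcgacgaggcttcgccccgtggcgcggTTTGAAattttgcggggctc

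DNA replication genes fell as well, with a smaller median. Of 49 measured genes, 30 were lower and 5 higher (median -0.87). CDC45, a helicase subunit, had 4 and 12 reads in JQ1 and 207 and 223 in DMSO (log2 -4.21, SE 0.41). The licensing factors CDC6 and ORC1 fell by 2.05 (SE 0.18) and 2.45 (SE 0.27), and the helicase subunit MCM6 by 1.35 (SE 0.12). The sliding clamp PCNA, with 49.7 and 49.9 CPM in JQ1 and 52.98 and 54.7 CPM in DMSO, did not pass the test.

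Of 22 genes of the G1 phase, 8 were lower (36.4%) and 2 higher (9.09%), beside 25.7% and 20.2% of all genes. Their median was -0.32, and -0.19 without JQ1 replicate 2. E2F1 and E2F2, the activators of S phase genes, fell by 2.97 (SE 0.32) and 4.21 (SE 0.55), and RBL1, the pocket protein p107, by 1.87 (SE 0.17). The kinases CDK4 and CDK6 each fell by 0.88, while CDKN1A rose as given above.

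Replication-dependent histone genes, whose mRNAs lack a poly(A) tail and are made in S phase, were lower in 30 and higher in 1 of 42 measured genes (median -1.88). That median lay between -1.97 and -1.69 with 1 library left out. H2AC16 had 6 and 6 reads in JQ1 and 540 and 517 in DMSO (log2 -5.92, SE 0.58), and H2BC13 14 and 20 reads in JQ1 and 432 and 472 in DMSO (log2 -4.21, SE 0.39). H2BC6 was the rise within this list, at 1.13 (SE 0.20), a value that was not called with total counts alone. Of 12 genes listed as replacement and linker histones, 7 were higher and 3 lower (median 0.33, and -0.44 with total counts alone). H3-3A stood at 0.90 and H1-10 at 1.23. The list also holds H4C14 and H2BC12, which are genes of the histone clusters and not replacement or linker variants. H4C14 rose by 3.63, from 44 and 45 reads in JQ1 and 5 and 5 in DMSO, and H2BC12 was at -2.86 (SE 0.20). Of these rises only H4C14 was called with total counts alone. The count of 7 dropped to 3 without either JQ1 library or DMSO replicate 1, and to 4 without DMSO replicate 2. Histone genes are near-identical copies, so the split of reads between them is uncertain.

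Genes of ribosomes and of the MYC program divided. Of 77 cytosolic ribosomal protein genes, 42 were lower and 0 higher (median -0.31), and 2 of the falls reached 2-fold. Without JQ1 replicate 1 the count of lower genes was 20, and without DMSO replicate 1 it was 17. RPS19 had 98.5 and 92.6 CPM in JQ1 and 253 and 213 CPM in DMSO (log2 -1.29, SE 0.10), and RPL22 56.2 and 57.2 CPM in JQ1 and 134 and 136 CPM in DMSO (log2 -1.25, SE 0.10). In raw share, this family took 1.38% and 1.47% of JQ1 counts and 3.19% and 2.78% of DMSO counts. Of 42 genes of the MYC network and its nucleolar targets, 17 were lower (40.5%) and 14 higher (33.3%), beside 25.7% and 20.2% of all genes. Their median was -0.05, near the -0.06 of all genes. The chaperonin HSPD1 fell by 1.53 (SE 0.12) and the folate carrier SLC19A1 by 1.97 (SE 0.16). ODC1, the first enzyme of polyamine synthesis and a classical MYC target, had 171 and 187 CPM in JQ1 and 42.7 and 43.0 CPM in DMSO (log2 2.06, SE 0.09). MLXIP, a partner of MLX, rose by 1.39 (SE 0.10). The E-box CACGTG was found upstream of 10 of 35 listed genes (28.6%), against 8.41% of promoters of tested genes. With total counts alone 34 of the 42 were lower and 5 higher, and the 14 higher genes dropped to 8 without JQ1 replicate 2 and to 9 without DMSO replicate 2.

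Chaperones of the endoplasmic reticulum (ER), which fold secreted proteins, were among the rises with TMM. Of 34 genes of the unfolded protein response and ER folding, 17 were higher and 4 lower (median 0.37). P4HB, a protein disulfide isomerase (chromosome 17, 81843159 to 81860694), had 3188 and 3386 CPM in JQ1 and 701 and 713 CPM in DMSO (log2 2.22, SE 0.12). CALR, calreticulin, had 1422 and 1610 CPM in JQ1 and 481 and 511 CPM in DMSO (log2 1.61, SE 0.12). HSPA5, the ER chaperone BiP, had 1613 and 1840 CPM in JQ1 and 477 and 560 CPM in DMSO (log2 1.74, SE 0.23). EIF2AK3, the stress sensor PERK, rose by 1.92 (SE 0.15), while ERN1, the sensor IRE1, fell by 0.91 (SE 0.13). Scaling by total counts brought the list's median to -0.38, with 5 genes higher and 17 lower, and P4HB, EIF2AK3 and CALR remained higher, at 1.45, 1.15 and 0.84. Without either KMS-11 DMSO library, which changes the estimate of spread, 7 genes of the list were called lower.

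The ER stress element, searched here as CCAAT and, after 9 bases of any kind, CCACG, binds NF-Y and ATF6 and holds a CCAAT box within it. It was found on either strand in the 250 upstream bases of 7 of 31 listed genes with a promoter in the table (22.6%), against 0.116% of promoters of tested genes. Those of CALR and HSPA5, both among the rises, are shown with the element in capitals; in CALR it reads on the opposite strand.
CALR (chr19:12938359-12938608, plus strand): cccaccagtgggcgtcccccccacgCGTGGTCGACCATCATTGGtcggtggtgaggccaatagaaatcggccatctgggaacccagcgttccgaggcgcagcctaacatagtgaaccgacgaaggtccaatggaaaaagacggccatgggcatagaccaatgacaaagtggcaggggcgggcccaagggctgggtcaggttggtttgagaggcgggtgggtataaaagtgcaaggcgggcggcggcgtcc
HSPA5 (chr9:125241344-125241593, minus strand): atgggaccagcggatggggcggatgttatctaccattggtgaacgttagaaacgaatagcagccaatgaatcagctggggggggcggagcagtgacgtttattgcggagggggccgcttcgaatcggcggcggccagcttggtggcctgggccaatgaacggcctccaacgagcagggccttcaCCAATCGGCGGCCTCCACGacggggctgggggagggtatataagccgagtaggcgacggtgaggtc

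The amino acid arm of the stress response went the other way. Of 24 genes of the ATF4 response and serine synthesis, 15 were lower and 0 higher (median -1.44). TRIB3, a pseudokinase induced by ATF4, had 6.82 and 9.95 CPM in JQ1 and 256 and 289 CPM in DMSO (log2 -5.03, SE 0.39). The amino acid transporter SLC7A5 had 28.5 and 36.2 CPM in JQ1 and 316 and 295 CPM in DMSO (log2 -3.24, SE 0.24). CTH, of cysteine synthesis, fell by 1.92 (SE 0.19), and MTHFD2, of the mitochondrial folate cycle, by 1.08 (SE 0.16). The transcription factor CEBPB and the serine enzyme PSAT1 fell by 4.10 (SE 0.46) and 3.42 (SE 0.49). The element TGATGNAA, which ATF4 binds with a C/EBP partner, was found on either strand upstream of 3 of 20 listed genes, against 1.57% of promoters of tested genes. ATF4 itself was at -0.71 and did not pass the test. The 15 falls numbered 8 without either JQ1 library and 9 without DMSO replicate 1.

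Lysosome genes and antioxidant genes were mostly higher. Of 39 lysosome and autophagy genes, 25 were higher and 3 lower (median 0.48). SQSTM1, the autophagy receptor p62, had 4916 and 5520 CPM in JQ1 and 487 and 453 CPM in DMSO (log2 3.47, SE 0.20). MCOLN1, a lysosomal calcium channel, had 61.0 and 77.5 CPM in JQ1 and 15.6 and 15.7 CPM in DMSO (log2 2.14, SE 0.16). The sialidase NEU1 rose by 2.13 (SE 0.11) and the proton pump subunit ATP6V0D1 by 1.58 (SE 0.11). CTSS, a cysteine protease, fell by 1.56 (SE 0.13). Under total counts, 10 genes were higher and 19 lower, with a median of -0.10, and these 4 rises remained.

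Many lysosomal genes are known to share an E-box of the CLEAR type, which the factors TFEB and TFE3 bind. Its palindrome TCACGTGA was found in the upstream 250 bases of 5 of 28 listed genes (17.9%), against 194 of the 12895 promoters of tested genes; it contains the E-box CACGTG. The promoters of MCOLN1, with 2 copies, and ATP6V0D1, with 1, are shown with the copies in capitals, since both genes rose.
MCOLN1 (chr19:7522374-7522623, plus strand): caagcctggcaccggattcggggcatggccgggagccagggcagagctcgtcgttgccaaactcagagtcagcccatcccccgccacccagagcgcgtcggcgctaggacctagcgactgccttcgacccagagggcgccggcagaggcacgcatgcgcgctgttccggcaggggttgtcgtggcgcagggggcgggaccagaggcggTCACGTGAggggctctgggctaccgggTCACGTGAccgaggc
ATP6V0D1 (chr16:67481158-67481407, minus strand): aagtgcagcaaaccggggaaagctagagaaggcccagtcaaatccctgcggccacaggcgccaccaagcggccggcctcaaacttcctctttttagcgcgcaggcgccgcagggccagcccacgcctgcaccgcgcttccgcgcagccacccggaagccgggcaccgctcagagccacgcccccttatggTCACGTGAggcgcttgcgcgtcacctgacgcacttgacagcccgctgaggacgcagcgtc

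Of 21 genes of the NRF2 pathway and redox control, 13 were higher and 3 lower (median 0.87, and 0.10 with total counts alone, where 8 were higher and 8 lower). FTL, the light chain of the iron store ferritin, had 9274 and 10971 CPM in JQ1 and 1020 and 807 CPM in DMSO (log2 3.47, SE 0.15). HMOX1, heme oxygenase 1, had 37.9 and 51.4 CPM in JQ1 and 4.53 and 4.73 CPM in DMSO (log2 3.27, SE 0.20). NQO1 had 173 and 162 CPM in JQ1 and 8.73 and 9.83 CPM in DMSO. The pentose phosphate enzyme PGD rose by 1.18 (SE 0.10), while NFE2L2, the NRF2 gene, was at -0.48 and called lower. The antioxidant element TGACNNNGC was found on either strand upstream of 4 of 16 listed genes, against 12.2% of promoters of tested genes.

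Genes of sterol and fatty acid synthesis were higher in 26 and lower in 3 of 33 measured genes (median 0.86, and 0.09 with total counts alone, where 12 were higher and 9 lower). IDI1, an isomerase of the mevalonate pathway, had 209 and 239 CPM in JQ1 and 37.6 and 37.5 CPM in DMSO (log2 2.58, SE 0.14). FASN, fatty acid synthase, had 688 and 750 CPM in JQ1 and 202 and 172 CPM in DMSO (log2 1.94, SE 0.14). TM7SF2, a sterol reductase, rose by 1.26 (SE 0.12), and INSIG1, a brake on the pathway, by 3.34 (SE 0.37). The sterol element TCACNCCAC was found, on either strand, upstream of 1 of 27 listed genes (3.70%), against 0.876% of promoters of tested genes.

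Of 31 glycolysis and hypoxia genes, 10 were lower (32.3%) and 7 higher (22.6%), near the 25.7% and 20.2% of all genes. Their median was -0.07, and 0.02 with genes that had no reads in a group at their bound. TPI1 and ALDOA, glycolytic enzymes, stood at 1.92 (SE 0.14) and 1.06 (SE 0.15), while the phosphofructokinase subunits PFKP and PFKM fell by 1.58 (SE 0.11) and 0.91 (SE 0.10). VEGFA, the vascular growth factor, fell by 3.14 (SE 0.33). Under total counts the list had 3 higher and 23 lower genes and a median of -0.84, and ALDOA was not called. All 13 mitochondrially encoded mRNAs were higher (median 1.05), and 4 of them were called with total counts alone (median 0.28). MT-CO1, a subunit of cytochrome oxidase, had 11428 and 12917 CPM in JQ1 and 4364 and 4434 CPM in DMSO (log2 1.47, SE 0.14).

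Single regulators of cell death changed in both directions. MCL1, a guardian of survival on which many myeloma cells depend, had 2394 and 2121 CPM in JQ1 and 326 and 323 CPM in DMSO (log2 2.80, SE 0.12; edgeR, adjusted p = 1.12e-11). BCL2L11, the death promoter BIM, had 1245 and 1155 CPM in JQ1 and 295 and 345 CPM in DMSO (log2 1.91, SE 0.12). BMF, another promoter of death, rose by 1.25 (SE 0.10). BCL2, an inhibitor of death, had 2054 and 2064 CPM in JQ1 and 2692 and 2704 CPM in DMSO (log2 -0.39, SE 0.10; edgeR, adjusted p = 0.00434). HRK had 25 and 44 reads in JQ1 and 501 and 565 in DMSO (log2 -3.43, SE 0.28). Of 14 BCL2 family genes, 4 were higher and 3 lower (median 0.00), or 28.6% and 21.4%, near the 20.2% and 25.7% of all genes. Under total counts 3 were higher and 8 lower (median -0.77).

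Of 26 p53 targets (median 0.00), 11 were higher (42.3%) and 8 lower (30.8%), beside 20.2% and 25.7% of all genes. With total counts alone 5 were higher and 14 lower (median -0.52). GADD45B and TP53INP1 rose by 2.65 (SE 0.14) and 2.19 (SE 0.12). FAS, the death receptor, had 23 and 19 reads in JQ1 and 783 and 774 in DMSO (log2 -4.69, SE 0.16).

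Immediate early genes and their regulators were higher in 10 (33.3%) and lower in 3 (10%) of 30 (median 0.23), led by ZFP36 and DUSP5 as given above. That median was 0.37 without JQ1 replicate 1, 0.08 without JQ1 replicate 2 and 0.48 without DMSO replicate 2. ZFP36L2, a relative of ZFP36, and JUNB, a subunit of AP-1, rose by 2.43 (SE 0.13) and 1.79 (SE 0.14). Of 28 NF-kB genes, 12 were higher (42.9%) and 5 lower (17.9%), with a median of 0.22. Both lists stand beside 20.2% higher and 25.7% lower of all genes. The inhibitors NFKBIA and NFKBIZ rose by 1.84 (SE 0.10) and 2.85 (SE 0.15), and MAP3K14, the kinase NIK, by 1.34 (SE 0.11). CCL4, a chemokine, had 58 and 64 reads in JQ1 and 0 and 1 in DMSO, a ratio of 175 with a counting interval of 30.7 to 6950. The medians of both lists turned to -0.15 (immediate early) and -0.55 (NF-kB) with total counts alone, while the rises named here remained.

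Plasma cell identity genes were lower in 15 and higher in 8 of 29 measured genes (median -1.12). LY9, a SLAM family receptor, had 24 and 18 reads in JQ1 and 478 and 544 in DMSO (log2 -4.08, SE 0.19). CD28, a costimulatory receptor, had 17 and 13 reads in JQ1 and 207 and 158 in DMSO (log2 -3.08, SE 0.23). TNFRSF17, the receptor BCMA, fell by 2.49 (SE 0.38) and the ER cofactor MZB1 by 2.44 (SE 0.17). CD38 had 287 and 234 CPM in JQ1 and 126 and 91.0 CPM in DMSO, a rise of 1.27 (SE 0.20). SDC1, the plasma cell marker CD138, was at 0.15 (SE 0.44) and did not pass the test. So the list held opposite changes, with IRF4, PRDM1, XBP1 and CD38 higher and LY9, CD28, TNFRSF17 and MZB1 lower. The IRF4 and XBP1 values of 0.75 and 0.77 were about the size of the shift between scalings.

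Immunoglobulin constant genes and the joining chain were lower in 6 and higher in 2 of 12 measured genes. IGHD, the constant region of IgD, had 134404 and 142125 reads in JQ1 and 42787 and 41069 in DMSO (log2 2.24, SE 0.16). JCHAIN, which joins IgM and IgA polymers, had 1473 and 1728 reads in JQ1 and 6841 and 7278 in DMSO (log2 -1.62, SE 0.17). IGHG4 had 23 and 29 reads in JQ1 and 1102 and 781 in DMSO (log2 -4.65, SE 0.30), and IGHG1 fell by 2.49 (SE 0.30). The measured members summed to 6865 to 7576 CPM in JQ1 and 1811 to 1835 CPM in DMSO, so the sum rose although more members fell. The IGHG genes are near-identical, so the split of reads between them is uncertain.

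Antigen presentation divided by class. Of 18 genes of MHC class I and peptide loading, 11 were higher and 5 lower (median 0.66, and -0.11 with total counts alone). HLA-B had 562 and 585 CPM in JQ1 and 221 and 223 CPM in DMSO (log2 1.37, SE 0.12), HLA-E rose by 1.67 (SE 0.14), and ERAP2, a peptide trimmer, fell by 1.51 (SE 0.13). Of 18 genes of MHC class II, 12 were lower and 3 higher (median -0.88). HLA-DRA had 8.94 and 7.79 CPM in JQ1 and 24.7 and 30.5 CPM in DMSO (log2 -1.72, SE 0.16), and HLA-DQA1 fell by 2.89 (SE 0.22). CD74, the invariant chain, was a rise, with 500 and 482 CPM in JQ1 and 193 and 191 CPM in DMSO (log2 1.35, SE 0.11).

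Of 41 interferon response genes, 6 were higher and 5 lower (median -0.58), which is 14.6% and 12.2% beside 20.2% and 25.7% of all genes. The 5 falls numbered 3 without either JQ1 library, 11 without RPMI8226 JQ1 replicate 1 and 10 without RPMI8226 JQ1 replicate 2, and the median was -0.05 without KMS-12 DMSO replicate 2. STAT2, a subunit of the interferon-activated factor ISGF3, rose by 1.48 (SE 0.14) and BST2, tetherin, by 1.87 (SE 0.30), while SP110 fell by 2.96 (SE 0.41). Of 19 measured ETS family genes, 5 were higher (26.3%) and 4 lower (21.1%), near the 20.2% and 25.7% of all genes. Beside ETV4, ELK4 fell by 0.43 (SE 0.09), and ELF1 and ELK3 stood at 0.79 (SE 0.11) and 0.73 (SE 0.14), which total counts alone brought to 0.02 and -0.04.

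Markers of other cells were few in reads. The summed level of 8 measured T and NK cell markers was 1.63 to 2.17 CPM in JQ1 and 15.5 CPM in each DMSO library. In DMSO most of it was CD8A, with 17 and 17 reads in JQ1 and 257 and 248 in DMSO (log2 -3.37, SE 0.39); CD3G, CD3E and CD247 were called lower too, and the 5 calls were 3 without JQ1 replicate 2 or DMSO replicate 1. The 11 measured B cell markers summed to 147 to 150 CPM in JQ1 and 66.3 to 71.7 CPM in DMSO, nearly all of it BACH2, a repressor of plasma cell fate, which rose by 1.22 (SE 0.16), while CD79A, CD79B and BANK1 were called lower from 19 to 65 DMSO reads per library. The 6 measured myeloid markers summed to 13.7 CPM in each JQ1 library and 17.4 to 18.1 CPM in DMSO, with CD33 at -0.47 (SE 0.17) and ITGAM at 1.17 (SE 0.46) called and CSF1R and S100A9 at 0 reads. The CD33 and ITGAM calls were lost without any 1 of the KMS-12 libraries (ITGAM without DMSO replicate 1 stood at 1.07). The 7 stromal, endothelial and epithelial markers summed to 5.55 to 5.79 CPM in JQ1 and 29.2 to 29.7 CPM in DMSO, with EPCAM at -2.46 (SE 0.17) and PECAM1 at -2.94 (SE 0.55), or -4.61 without JQ1 replicate 1. The erythroid and platelet marker measured, ITGA2B, stood at 0.210 to 0.757 CPM in JQ1 and 0.570 to 0.656 CPM in DMSO. Their part in other results was not tested.

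Where KMS-12 responded unlike the other lines was asked with a contrast in the same fit, the KMS-12 response minus the mean of the KMS-11 and RPMI8226 responses. It called 5525 genes (23.5%), 2752 with a more positive response in KMS-12 (11.7%) and 2773 with a more negative one (11.8%). With total counts alone 913 were more positive and 8853 more negative, and without KMS-12 JQ1 replicate 2 the more negative genes were 1788. By p, a more positive response was led by DUSP5, AHNAK, ZFP36, P4HB, TENT5C and HSPA8. DUSP5 had a log2 change of 4.37 in KMS-12, against 0.14 in KMS-11 and -0.02 in RPMI8226, a difference of 4.31 (SE 0.16; edgeR, adjusted p = 1.98e-11). AHNAK, a giant scaffold protein, had 1704 and 2050 CPM in KMS-12 JQ1 and 136 and 157 CPM in KMS-12 DMSO, with a difference of 3.77 (SE 0.15). TENT5C, a poly(A) polymerase that is mutated in myeloma, had 560 and 562 CPM in KMS-12 JQ1 and 59.3 and 63.5 CPM in KMS-12 DMSO, with a difference of 3.54 (SE 0.17). HSPA8, a constitutive chaperone, was at 2.68 in KMS-12, against 0.29 in KMS-11 and 0.55 in RPMI8226, and was called higher in all of them. ZFP36 was called higher in KMS-11 too, at 1.52, and lower in RPMI8226, at -0.82.

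By p, a more negative response was led by FAS, CCDC141, NPL, MBNL3, LAIR1 and SYNE1. FAS fell by 4.69 in KMS-12, while its change was 1.12 in KMS-11 and 0.30 in RPMI8226, a difference of -5.40 (SE 0.17; edgeR, adjusted p = 2.05e-12). LAIR1, an inhibitory receptor, had 8 and 23 reads in KMS-12 JQ1 and 927 and 980 in KMS-12 DMSO, with a difference of -4.27 (SE 0.24). NPL, a sialic acid lyase, changed by -1.71 in KMS-12, 2.23 in KMS-11 and 1.51 in RPMI8226. CCDC141, the splicing regulator MBNL3 and the nuclear envelope protein SYNE1 had differences of -4.20, -2.64 and -2.16. Several of these falls were shared in direction. MBNL3 and LAIR1 were called lower in KMS-11, at -1.32 and -1.81, and in RPMI8226, at -0.67 and -0.48. CCDC141 and SYNE1 were called lower in RPMI8226, at -1.18 and -0.77, but not in KMS-11.

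Whole groups separated too. Of 34 unfolded protein response and ER folding genes, 24 had a more positive response in KMS-12 and 1 a more negative one, and 17 and 5 with total counts alone. In KMS-11 0 of these genes were higher and 30 lower, where 17.3% of all genes were higher and 21.2% lower. In RPMI8226 0 were higher and 18 lower, where 13.6% of all genes were higher and 18.6% lower. Of 33 sterol and fatty acid genes, 26 were more positive in KMS-12 and 1 more negative (19 and 3 with total counts alone), with 2 higher and 15 lower in KMS-11 and 1 higher and 18 lower in RPMI8226. Lysosome genes were more positive in 23 and more negative in 3 of 39 (17 and 13 with total counts alone).

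With TMM, mitosis genes differed from the mean of the other lines in few cases (1 more positive and 3 more negative of 44). With total counts alone 1 was more positive and 26 were more negative. The mean of the other lines joins opposite changes. In KMS-11 43 of the 44 were lower, and in RPMI8226 0 were lower and 2 higher. Replication-dependent histones were more negative in KMS-12 in 24 of 42 and more positive in 0, with 24 lower and 1 higher in KMS-11 and 20 higher and 0 lower in RPMI8226. Host genes of small nucleolar RNAs were more negative in 14 and more positive in 1 of 24. With total counts alone 33 of these histones and 19 of these host genes were more negative, and 0 of either were more positive.

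**Figure D5:**
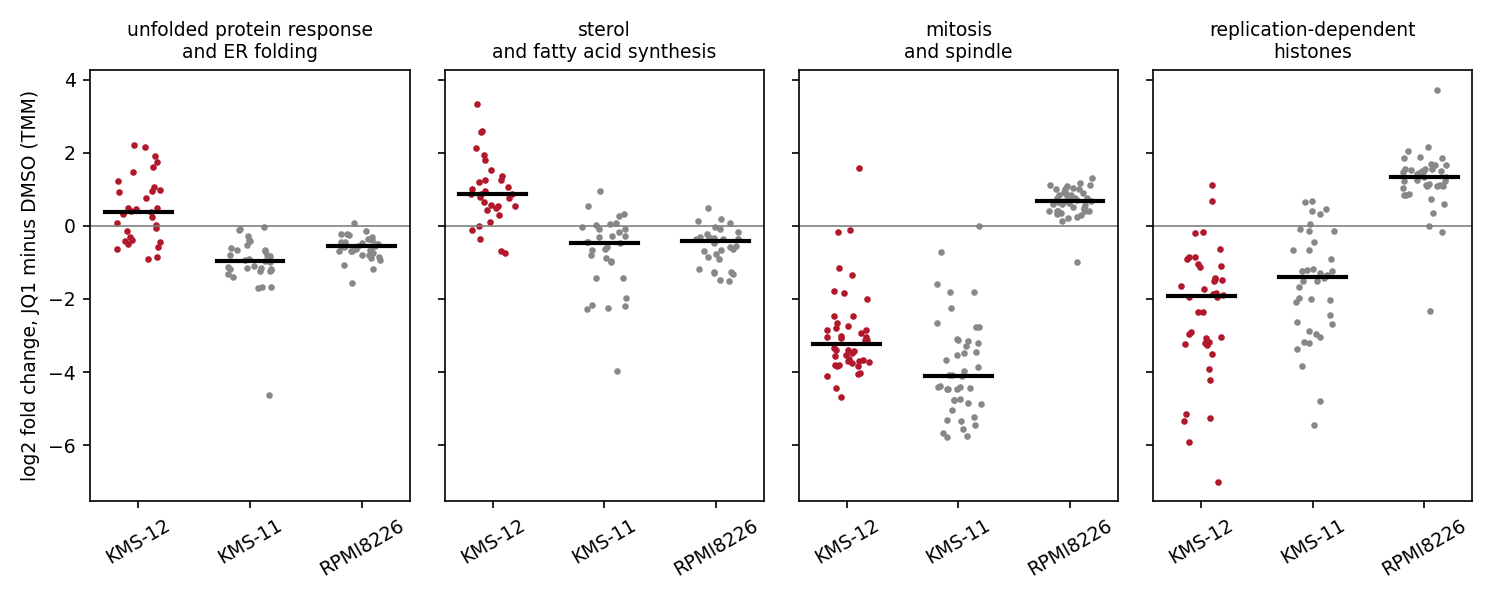
Log2 fold change (JQ1 minus DMSO, TMM) in KMS-12 (red), KMS-11 and RPMI8226 (grey) of members of 4 lists with a mean of at least 1 CPM in a KMS-12 group, 1 point per gene, with the median as a bar; values below -7 are drawn at -7. In the ER folding and sterol lists the KMS-12 medians are 0.38 and 0.86, above 0, and those of the other lines lie below 0; the mitosis median is -3.24 in KMS-12, -4.10 in KMS-11 and 0.69 in RPMI8226.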

How the data were processed

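Gene counts of 12 libraries from 3 myeloma lines were analysed. The values are raw counts per gene deposited by the authors as 1 table, with no normalization. The submitters' processing notes name DESeq2, MACS2, hg38 and GRCh38.p13, without saying which step each belongs to; no source used here names the aligner, the annotation or the strand setting. Of 60666 gene IDs, 60437 carry a symbol in the tables used, and 58420 (96.3%) are in GENCODE 29, which gave positions and gene classes. Promoter sequences are from RefSeq (GRCh38.p14).

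All 12 libraries entered 1 fit with a mean for each of 6 groups, in edgeR 4.0.16 (R 4.3.3, limma 3.58.1), with TMM scaling, robust quasi-likelihood tests and Benjamini-Hochberg adjustment over the 23493 genes that passed filterByExpr (minimum count 10, minimum total 15). These genes held 99.899% to 99.961% of the counts. The threshold was an adjusted p of 0.05. SE is the log2 fold change divided by the root of the quasi-likelihood F. A gene with 0 reads in a group has no fitted fold here but a bound from a floor of 3 counts over the group; intervals of few reads are exact at 95%. The fit was tested on simulated counts. Total counts were 15424512 to 27366499, which limits precision for genes with few reads.

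Named genes are the 12 leading rises and falls and 5 and 5 long non-coding RNAs, all called, with a symbol, at least 5 CPM on average and groups that do not overlap; up to 4 called members of each list by adjusted p, at any level; 6 and 6 of the contrast between lines, with a symbol and at least 5 CPM; and 14 genes named in advance; some of these are not reported here but count in the lists. The members and lists were chosen with earlier results of these data known. The labels do not say whether replicate numbers pair the libraries, and the main fit did not pair them. Alternatives covered scaling, filter, test, block, the libraries fitted, and each library left out, plus level classes added after seeing the data, with DESeq2 1.42.0 and limma-voom among the tests. Figures used Python 3.11.15 and matplotlib 3.10.9.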

Additional observations from a re-analysis of the deposited data

Results flagged for a closer look

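The contrast between lines marked 39 of the named genes, with edgeR's quasi-likelihood test in the same fit. The values given are the KMS-12 response minus the mean of the KMS-11 and RPMI8226 responses, on the log2 scale. The difference kept its direction and call for all 39 with total counts alone and with total counts without MALAT1 and NEAT1. Total counts alone moved the difference of all genes by -0.63. Both scalings made each negative difference larger, so that the negative ones stayed called is no test of them. The KMS-12 response itself was not called with total counts alone for PDIA3, ALDOA, ELK3, IRF4, ELF1 and ITGAM. Under that scaling these genes do not meet the rule of opposite calls given below. The explanations were not weighed.

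A set of 12 genes was marked for the smallest p. ZFP36 had a difference of 4.60, DUSP5 4.31, AHNAK 3.77, TENT5C 3.54, P4HB 3.02 and HSPA8 2.26. SYNE1 had a difference of -2.16, MBNL3 -2.64, NPL -3.58, CCDC141 -4.20, LAIR1 -4.27 and FAS -5.40.

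The other 27 were marked because KMS-12 was called in one direction, at least 1 other line was called in the opposite direction, and the difference passed the test. Among genes higher in KMS-12, PLAAT4 had a difference of 5.84, CDKN1A 4.74, ZFP36L2 3.14, FASN 2.82, MCL1 2.34, EIF2AK3 2.23 and TPI1 2.16. CALR had 2.01, PDIA3 1.88, HLA-E 1.84, CDC25B 1.80, HLA-B 1.55 and CD74 1.28. ALDOA and ELK3 had 1.22 each, IRF4 1.21 and ELF1 1.07, and ITGAM had 2.53 (SE 0.52). MCL1 was at 2.80 in KMS-12, 1.37 in KMS-11 and -0.46 in RPMI8226, so its direction was shared with KMS-11. PLAAT4 and CD74 were called higher in KMS-11 too, at 2.36 and 0.63, and TPI1 and ALDOA in RPMI8226, at 0.38 and 0.60.

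P2RY6 and CCL4 also met this rule, with differences of 8.98 (SE 1.24) and 9.51 (SE 2.19), and both rest on few reads elsewhere. P2RY6 had 0 and 0 reads in KMS-11 JQ1 and 1 and 2 in KMS-11 DMSO, and 9 and 8 in RPMI8226 JQ1 against 60 and 88 in RPMI8226 DMSO. CCL4 had 0 and 0 reads in KMS-11 JQ1 and 1 and 0 in KMS-11 DMSO, and 1 and 4 in RPMI8226 JQ1 against 18 and 22 in RPMI8226 DMSO.

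Among genes lower in KMS-12, MCM6 had a difference of -0.82, CCND1 -0.998, ZFAS1 -1.31, CDC45 -1.93, RBL1 -1.94, H2BC13 -3.43 and HRK -4.00. CCND1 changed by -0.85 in KMS-12, 1.59 in KMS-11 and -1.29 in RPMI8226, and in the other lines it rests on 188 to 714 reads per library in RPMI8226 and 167 to 477 in KMS-11. CDC45, H2BC13, MCM6 and RBL1 fell in KMS-12 and KMS-11 and were higher in RPMI8226.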

How the results depend on the processing

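With total counts alone, 1035 genes were higher and 12780 lower in JQ1, the contrast between lines had 913 and 8853, and IRF4 stood at -0.018 and ELK3 at -0.044. The medians of lists that turned sign were -0.28 for BET proteins and elongation, -0.44 for replacement histones, -0.38 for ER folding, -0.10 for lysosome, -0.11 for MHC class I, -0.55 for NF-kB, -0.15 for immediate early -0.27 for paraspeckles and -0.77 for the BCL2 family (0.0031 with TMM). With total counts without MALAT1 and NEAT1, 2778 genes were higher, the contrast between lines had 1595 and 5087, and the NF-kB and immediate early medians were -0.090 and 0.00. With level taken from KMS-12 DMSO alone, chosen after seeing the data, the median of genes at 10 to 100 CPM was -0.011. Without the filter the myeloid median was 0.00. With at least 10 CPM, 3415 genes were lower and the immunoglobulin median was 2.16. A test against 1.5-fold called 1927 higher and 3685 lower (1032 and 1033 between lines), and MYC, IRF4 and BCL2 did not pass it. With KMS-12 libraries only, 5889 genes were higher and 6497 lower, and the glycolysis median was 0.064. The cause was not tested. Leaving out 1 library gave 3661 to 5152 higher and 4462 to 6397 lower, and between lines 2028 to 3064 and 1788 to 3168, the lowest without KMS-12 JQ1 replicate 2; CD33, ITGAM, CD247 and BANK1 lost their calls. With replicate number as a block, 5015 genes were higher and 6229 lower (3077 and 3180 between lines). Same-numbered deviations correlated by 0.094 in KMS-12, against 0.19 and 0.38 in KMS-11 and RPMI8226. These values do not settle whether same-numbered libraries share a batch. Over the named genes reported and all alternatives, 3623 values kept direction and call, 2 turned and 35 lost the call. Most named genes were picked for their fold or p in the main fit, which favours keeping the call. Scaling by total counts could not undo a fall, and some alternatives left out only a library of another line. The tally is therefore no test of these genes.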
